A study of Mus musculus with 157 samples.

Results

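RNA polymerase II (Pol II) at promoters was compared after 2 h of retinoic acid (RA) and at 0 h in mouse E14 embryonic stem cells, with 1 antibody to all Pol II and 1 to a phosphorylated form. The comparison takes in every sequenced library of the 2 antibodies at those times for which the promoter tables hold counts. These are 9 of the 157 samples of the series. The treated cells had received 1 µM RA for 2 h, and the 0 h cells had received none. Both are labelled wildtype, and the medium held serum and leukaemia inhibitory factor (LIF) over gelatin-coated plastic. The antibody to the N-terminal domain (NTD) binds Pol II whatever its phosphorylation and had 2 libraries at 2 h (replicates 1 and 4) and 2 at 0 h (replicates 1 and 4). The antibody to phosphorylated serine 5 (Ser5p) of the C-terminal repeat had 3 libraries at 2 h (replicates 1, 3 and 4) and 2 at 0 h (replicates 1 and 4). E14 is 1 established cell line, and nothing in the labels says that its replicates came from separate cultures, so that p-values measure the spread between libraries, which may be technical.

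RA is the vitamin A derivative that turns on differentiation of embryonic stem cells. It enters the nucleus and binds heterodimers of a retinoic acid receptor (RAR) and a retinoid X receptor that already sit on DNA, so that corepressors leave and coactivators and Pol II can be recruited. Pol II that has just begun transcription carries Ser5p and often pauses close to the start site, which is why chromatin immunoprecipitation with either antibody gives its strongest signal around promoters. Among the earliest RA targets known in these cells are genes of RA breakdown, the receptor gene Rarb, caudal and Hox genes.

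Reads were counted within 1 kb on either side of each annotated transcription start site (TSS), and 1605301 to 2596879 reads per NTD library and 1533067 to 2646768 per Ser5p library fell there. Levels are given as CPM, counts per M reads of a library's TSS total, and log2 changes are 2 h minus 0 h. A gene was called when edgeR's quasi-likelihood test gave a Benjamini-Hochberg adjusted p below 0.05 over all transcripts tested. The 8 embryonic stem cell markers, Pou5f1, Nanog and Sox2 among them, summed to 667 to 705 CPM of NTD in the 2 h libraries and to 620 to 779 CPM in the 0 h libraries. Of fibroblast markers, 8 summed to 45.5 to 56.1 CPM at 2 h and to 42.7 to 60.4 CPM at 0 h, with no marker at 0. For Ser5p these fibroblast markers summed to 56.1 to 88.7 CPM at 2 h and to 89.9 to 106 CPM at 0 h, so that the groups did not overlap, and the part of this in the Ser5p results was not tested. In bulk samples, fewer cells with Pol II at a promoter and less Pol II per cell cannot be told apart. NTD 0 h replicate 4 stood apart at a set of promoters described further on, so the genes called higher are given with and without the 0 h replicate 4 of their antibody, and those called lower by their range.

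Promoter Pol II was called higher after RA at few genes. For NTD, 17 of 31868 transcripts were called higher at 2 h, 0.0533 percent of those tested, and they belong to 13 genes with 14 distinct TSS windows. A further 85 transcripts, 0.267 percent, were called lower. For Ser5p, 10 of 32774 transcripts (8 genes) were called higher, 0.0305 percent, and 0 were called lower (0 percent). At an unadjusted p below 0.05, 1057 Ser5p transcripts were higher and 1100 lower, and DESeq2 also called 0 lower. Pmepa1, Cd37 and Dock6 were called higher with both antibodies, so that 18 genes were called higher in all.

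Without 0 h replicate 4 these counts shrank. For NTD, 2 of 32401 transcripts were then called higher (0.00617 percent), those of Pmepa1 and Cdx1, and 0 were called lower (0 percent), with 525 lower at an unadjusted p below 0.05. For Ser5p, 0 of 32895 were called higher and 0 lower (0 percent each), with 661 higher and 651 lower at an unadjusted p below 0.05. These fits compare the 2 h libraries with 1 untreated library, whose spread is taken to be that of the other times. Leaving out other libraries moved the counts too: for NTD 13 higher and 169 lower without 0 h replicate 1, and 3 higher and 0 lower without either 2 h replicate. For Ser5p, 0 were called higher without 0 h replicate 1, 3 without 2 h replicate 1 or 3, and 6 without 2 h replicate 4. The authors' deposited table holds an adjusted p below 0.05 and a positive log2 change for 2 NTD transcripts, Pmepa1 and Cdx1, and a negative one for 0.

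**Figure D1:**
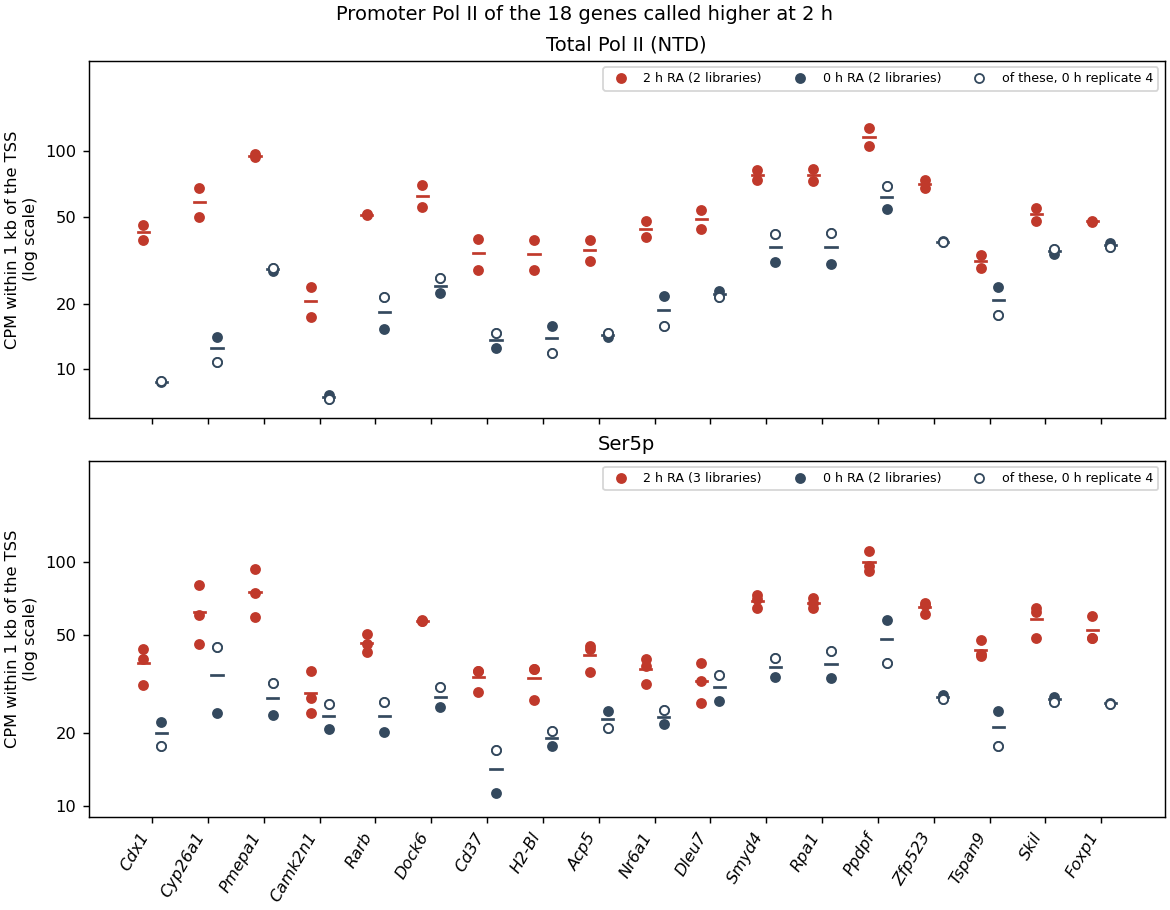
CPM within 1 kb of the TSS (log scale) for the 18 genes called higher with either antibody, NTD above and Ser5p below. Red points are 2 h libraries, dark points 0 h libraries, open points 0 h replicate 4, and short lines group means. All 2 h points of NTD stand above all 0 h points of the same gene, and for Ser5p the groups overlap at Camk2n1 and Dleu7.

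Pmepa1, which encodes a membrane protein that dampens transforming growth factor beta (TGF-beta) signalling, was called higher with both antibodies. It had 94.7 and 96.9 CPM of NTD at 2 h, against 28.3 and 29.3 CPM at 0 h. Its Ser5p stood at 74.3, 59.3 and 93.3 CPM at 2 h, against 23.6 and 32.0 CPM at 0 h. With either antibody every 2 h library was above both 0 h libraries. The log2 change was 1.68 ± 0.24 for NTD (SE; adjusted p = 9.8e-05, edgeR) and 1.55 ± 0.25 for Ser5p (adjusted p = 0.00284, edgeR). When 0 h replicate 4 was left out the NTD change was 1.77 (adjusted p = 0.0119, edgeR), and the Ser5p change was 1.75 with an adjusted p of 0.0511, on the other side of the threshold. The gene lies on chromosome 2 at 173224458-173276731 (mm10).

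Skil encodes SnoN, a corepressor of the SMAD proteins that carry the TGF-beta signal. Its Ser5p was 62.5, 64.5 and 48.7 CPM at 2 h, against 28.0 and 26.7 CPM at 0 h, a log2 change of 1.18 ± 0.23 (adjusted p = 0.0268, edgeR). It was 1.14 without 0 h replicate 4 (adjusted p = 0.725, edgeR). All 3 of its annotated transcripts share that window. NTD gave 48.0 and 55.2 CPM at 2 h, against 33.7 and 35.8 CPM at 0 h, with a log2 change of 0.52 that was not called. Both antibodies thus separated the groups at Skil, and only the Ser5p change passed the test, with a difference between the antibodies of 0.66 ± 0.33 (log2, adjusted p = 0.987, edgeR). Skil is in the list of targets of bone morphogenetic protein and TGF-beta signalling, and Pmepa1 is not. Of the other 13 genes in that list, 0 were called with either antibody.

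Cdx1, a caudal homeobox gene that acts upstream of Hox genes and is a direct RA target, had the highest log2 change of NTD. Its NTD level was 39.2 and 46.0 CPM at 2 h, against 8.71 and 8.86 CPM at 0 h, a log2 change of 2.22 ± 0.32 (adjusted p = 9.8e-05, edgeR). It was 2.30 without 0 h replicate 4 (adjusted p = 0.0120, edgeR). For Ser5p it had 40.1, 31.3 and 43.8 CPM at 2 h, against 22.1 and 17.6 CPM at 0 h. That log2 change of 1.02 ± 0.26 was not called (adjusted p = 0.213, edgeR), although no 2 h library reached down to a 0 h one.

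Cyp26a1 encodes the cytochrome P450 that breaks down RA. It had 67.9 and 49.8 CPM of NTD at 2 h, against 14.1 and 10.8 CPM at 0 h. The log2 change was 2.20 ± 0.36 (adjusted p = 0.00137, edgeR). It was 2.06 without 0 h replicate 4, but with an adjusted p of 0.131 (edgeR). Ser5p was 80.7, 46.1 and 60.5 CPM at 2 h, against 24.1 and 45.0 CPM at 0 h, and the lowest 2 h library stood just above the higher 0 h library. The Ser5p log2 change of 0.95 ± 0.29 was not called (adjusted p = 0.478), and was 1.43 without 0 h replicate 4 (adjusted p = 0.725, edgeR).

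Rarb encodes retinoic acid receptor beta, whose gene is itself switched on through RAR. The counts cover 2 separate Rarb windows with 2 annotated transcripts each. In the stronger window NTD was 51.7 and 50.9 CPM at 2 h, against 15.2 and 21.6 CPM at 0 h, a log2 change of 1.40 ± 0.31 (adjusted p = 0.0216, edgeR). The change was 1.76 without 0 h replicate 4, with an adjusted p of 0.279 (edgeR). Ser5p in that window was 46.0, 50.5 and 42.7 CPM at 2 h, against 20.1 and 26.7 CPM at 0 h (log2 change 1.09 ± 0.32, adjusted p = 0.449, edgeR). The weaker window had 4.36 and 4.87 CPM of NTD at 2 h, against 5.44 and 6.16 CPM at 0 h, and a log2 change of -0.38 ± 0.56 that was not called.

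RAR binds direct repeats of a 6-base element, and the spacing of 5 bases is the classical one. The 300 bases around each RefSeq start (250 before and 50 after, GRCm38.p6) were searched on both strands for direct repeats, each element being AGGTCA, the variant AGTTCA, the variant GGGTCA, or else the variant GGTTCA. With a spacer of 5 bases, 32 of 32851 promoters hold such a repeat (0.0974 percent). Among those are the RefSeq promoters of Rarb and Cyp26a1, shown because these genes combine the repeat with a called gain of NTD. The Rarb promoter is chr14:16575427-16575726 on the minus strand, inside the gene's annotated span of 16430839-17082331, with the repeat at -53 to -37 from the start. In Cyp26a1, at chr19:37697558-37697857 on the plus strand, the repeat reads on the opposite strand at -32 to -16. Capitals mark the repeated elements, in Cyp26a1 as their reverse complement.
Rarb: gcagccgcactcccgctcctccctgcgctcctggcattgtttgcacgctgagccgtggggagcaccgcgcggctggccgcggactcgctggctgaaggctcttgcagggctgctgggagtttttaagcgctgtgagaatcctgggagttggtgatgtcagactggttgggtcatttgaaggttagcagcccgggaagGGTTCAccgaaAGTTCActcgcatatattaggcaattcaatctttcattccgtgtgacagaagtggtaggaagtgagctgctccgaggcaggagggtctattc
Cyp26a1: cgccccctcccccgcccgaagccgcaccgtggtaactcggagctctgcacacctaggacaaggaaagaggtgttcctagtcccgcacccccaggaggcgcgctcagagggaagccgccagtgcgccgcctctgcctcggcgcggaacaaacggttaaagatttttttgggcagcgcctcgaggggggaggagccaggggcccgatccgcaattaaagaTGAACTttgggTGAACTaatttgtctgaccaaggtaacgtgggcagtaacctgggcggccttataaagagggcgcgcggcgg

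Of the 31 genes with a 5-base repeat, 12 were measured with each antibody. Rarb and Cyp26a1 were called higher for NTD (0.0533 percent of all transcripts were) and 0 of the 12 for Ser5p, and neither NTD call held without 0 h replicate 4 (adjusted p = 0.279 and 0.131, edgeR). The median log2 change of the 12 was 0.22 for NTD and -0.14 for Ser5p, beside -0.01 for all tested with either antibody. Repeats spaced by 2 bases (0.268 percent of promoters) and by 1 base (0.222 percent) had 17 and 40 measured genes for NTD, of which 0 were called. Of the 18 genes called higher, 13 have a promoter in the RefSeq table, and of those Rarb and Cyp26a1 hold the 5-base repeat and the other 11 do not. Pmepa1, Cdx1, Skil, Camk2n1 and H2-Bl have no promoter there and were not searched. A match is a description of the letters and not a measured site.

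Further transcription factor genes were called with 1 antibody each. Nr6a1, an orphan nuclear receptor that represses Pou5f1 as stem cells differentiate, had 48.0 and 40.6 CPM of NTD at 2 h, against 21.8 and 15.8 CPM at 0 h (log2 change 1.21 ± 0.25, adjusted p = 0.0109, edgeR). Its second window, at a lower level, changed by 0.70 ± 0.33 on the log2 scale and was not called. Zfp523, a zinc finger protein, had the smallest p for Ser5p beside Pmepa1. It held 61.5, 66.5 and 67.6 CPM of Ser5p at 2 h, against 28.5 and 27.4 CPM at 0 h (log2 change 1.31 ± 0.21, adjusted p = 0.00284, edgeR). The NTD change of Zfp523 was 0.83 ± 0.22 and was not called (adjusted p = 0.0909, edgeR). Foxp1, a forkhead factor, had 48.6, 60.1 and 48.7 CPM of Ser5p at 2 h, against 26.5 and 26.1 CPM at 0 h (log2 change 1.09 ± 0.21, adjusted p = 0.0268, edgeR). Only 1 of the 3 measured Foxp1 windows was called, and the other two had log2 changes of -0.13 and -0.19 for Ser5p. The adjusted p without 0 h replicate 4 was 0.858 for Nr6a1, 0.515 for Zfp523 and 0.725 for Foxp1 (edgeR).

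The remaining called genes have roles outside transcription. Dock6, an exchange factor for the small GTPases Rac1 and Cdc42, had 55.4 and 69.8 CPM of NTD at 2 h, against 22.3 and 26.2 CPM at 0 h. Its Ser5p was 57.2, 57.3 and 57.8 CPM at 2 h, against 25.5 and 30.7 CPM at 0 h. The log2 changes were 1.31 ± 0.24 for NTD (adjusted p = 0.00474, edgeR) and 1.13 ± 0.22 for Ser5p (adjusted p = 0.0268, edgeR). Cd37, a tetraspanin known from leukocytes, had 28.7 and 39.5 CPM of NTD at 2 h, against 12.5 and 14.6 CPM at 0 h. Ser5p at Cd37 was 35.8, 29.3 and 35.9 CPM at 2 h, against 11.3 and 17.0 CPM at 0 h. The log2 changes of Cd37 were 1.27 ± 0.27 for NTD (adjusted p = 0.0156) and 1.36 ± 0.26 for Ser5p (adjusted p = 0.0268) in edgeR. With 0 h replicate 4 left out, Dock6 changed by 1.50 for NTD (adjusted p = 0.0984) and 1.24 for Ser5p (adjusted p = 0.551), and Cd37 by 1.46 (adjusted p = 0.347) and 1.64 (adjusted p = 0.157) in edgeR.

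Camk2n1, an inhibitor of calcium/calmodulin-dependent kinase II, had the lowest levels among the genes called higher for NTD, 17.4 and 23.8 CPM at 2 h, against 7.62 and 7.32 CPM at 0 h (log2 change 1.42 ± 0.32). For Ser5p it had 35.8, 24.0 and 27.6 CPM at 2 h, against 20.6 and 26.1 CPM at 0 h, so that the groups overlapped. Dleu7 likewise had 44.2 and 53.6 CPM of NTD at 2 h, against 22.9 and 21.6 CPM at 0 h, while its Ser5p levels overlapped (log2 change 0.16 ± 0.20). Acp5, tartrate-resistant acid phosphatase, changed by 1.23 ± 0.27 for NTD in 1 of 3 windows, with 39.2 and 31.4 CPM at 2 h, against 14.1 and 14.6 CPM at 0 h. H2-Bl changed by 1.26 ± 0.28. It is a class I histocompatibility gene with close relatives on the same chromosome, with which it may share reads. Smyd4, of a family of lysine methyltransferases, and Rpa1, a subunit of the single-stranded DNA-binding protein of replication, are neighbours on chromosome 11 on opposite strands whose annotated spans overlap at one end. Their windows share reads and are not independent, with 82.2 and 73.6 CPM of NTD at 2 h, against 31.0 and 41.6 CPM at 0 h in the Smyd4 window. The adjusted p of these 6 genes without 0 h replicate 4 in edgeR was 0.787 for Camk2n1 and Dleu7, 0.616 for Acp5, 1.00 for H2-Bl, 0.115 for Smyd4 and 0.0984 for Rpa1.

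Ppdpf and Tspan9 were called for Ser5p alone, both with an adjusted p of 0.0485 (edgeR). Ppdpf, named for a role in pancreatic progenitors in zebrafish, had 96.2, 111 and 92.2 CPM at 2 h, against 58.0 and 38.5 CPM at 0 h. Tspan9, a tetraspanin, had 41.2, 47.7 and 41.9 CPM at 2 h, against 24.6 and 17.6 CPM at 0 h. In both genes the lower 0 h value was that of replicate 4. Without it, the log2 changes were 0.86 for Ppdpf and 0.91 for Tspan9, with adjusted p-values of 1.00 (edgeR).

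The antibodies were read against each other at the called promoters. For Ser5p, 11 of the 13 genes called higher for NTD had every 2 h library above every 0 h library, where 7.84 percent of all tested transcripts did. All 13 had a positive Ser5p log2 change, with a median of 0.95 and a range of 0.16 to 1.55, beside a median of -0.01 over all transcripts. For NTD, 8 of the 8 genes called higher for Ser5p had both 2 h libraries above both 0 h libraries, beside 18.7 percent of all transcripts. Their median NTD log2 change was 0.84, beside -0.01 over all. The difference between the Ser5p and the NTD change was tested in 1 fit of both antibodies over 32820 transcripts, and 0 were called (0 percent). At an unadjusted p below 0.05 the Ser5p change was the larger at 522 and the smaller at 676, and DESeq2 called 0 as well. Without 0 h replicate 1, 95 were called with the Ser5p change the larger, and 66 of them are among the 85 transcripts called lower for NTD. Among named genes, Camk2n1 had a difference of -1.03 ± 0.42, Cyp26a1 of -1.26 ± 0.53, Cdx1 of -1.21 ± 0.45 and Foxp1 of 0.78 ± 0.31 (log2, SE), all with an adjusted p of 0.987 (edgeR). The Cyp26a1 difference was -0.64 ± 0.67 without 0 h replicate 4, and the counts at an unadjusted p below 0.05 were then 257 and 357.

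**Figure D2:**
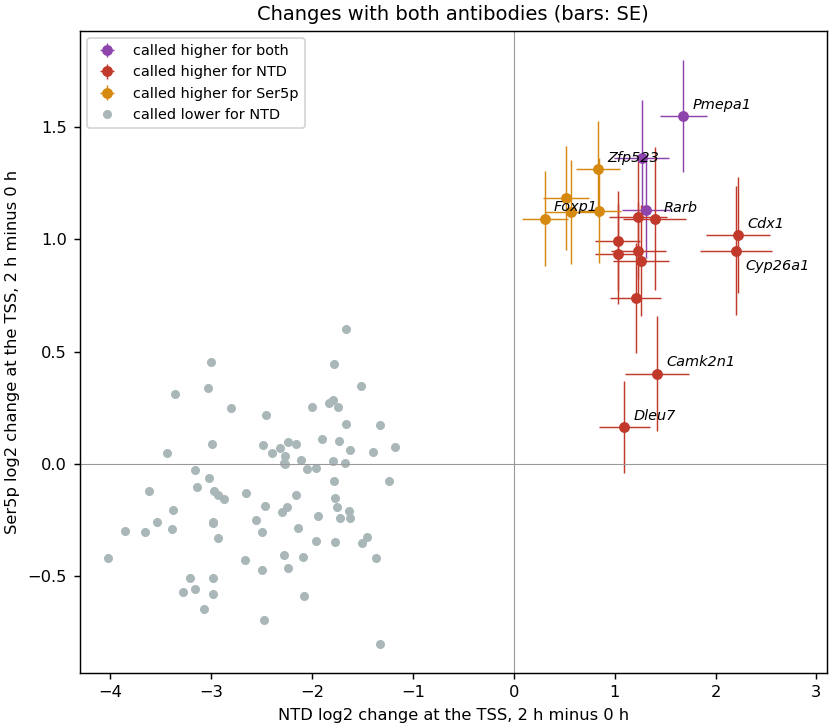
Log2 changes at the TSS, 2 h minus 0 h, of every transcript called with either antibody, NTD on the horizontal axis and Ser5p on the vertical axis, with SE bars on the genes called higher. Genes called higher lie above 0 on both axes, from 0.31 to 2.22 for NTD. The 85 transcripts called lower for NTD lie on both sides of 0 for Ser5p.

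The 85 transcripts called lower for NTD were led by 1 library. Their median level was 11.8 and 11.4 CPM in the 2 h replicates 1 and 4, against 13.1 CPM in 0 h replicate 1 and 113 CPM in 0 h replicate 4. At 84 of the 85, 0 h replicate 4 was the highest of the 4 libraries, and at 79 it was over 3 times the level of 0 h replicate 1. Over all 31868 transcripts tested, 0 h replicate 4 was over 3 times 0 h replicate 1 at 197, and 0 h replicate 1 over 3 times 0 h replicate 4 at 315. The 85 were called from these same libraries. Arg1 (arginase) had 6.85 and 5.96 CPM at 2 h, against 7.62 CPM in 0 h replicate 1 and 183 CPM in 0 h replicate 4. The endothelin receptor gene Ednrb had 6.23 and 10.3 CPM at 2 h, against 7.62 and 214 CPM at 0 h. In Asic2 (an ion channel), Nlgn1 (a synaptic adhesion protein), Megf10 (an engulfment receptor) and Mocos (an enzyme of the molybdenum cofactor), 0 h replicate 4 likewise held 118 to 177 CPM, where the other libraries held 3.79 to 17.96 CPM.

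With all libraries the log2 changes of the 85 ran from -4.02 to -1.18. They ran, without 0 h replicate 4, from -1.33 to 0.83 with a median of -0.12, and 52 were below 0. The smallest adjusted p was then 0.787 (edgeR). The 1 member that 0 h replicate 4 did not lead was Mir127, a microRNA gene of an imprinted cluster on chromosome 12, named here after its values were seen. It had 9.97 and 8.12 CPM at 2 h, against 22.9 and 21.2 CPM at 0 h, and changed by -1.33 with and without 0 h replicate 4 (adjusted p = 0.0376 and 0.787, edgeR).

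The homeobox genes Hoxb1 and Hoxb5, which pattern the hindbrain and trunk, are among the 85. Hoxb1 had 6.85 and 12.99 CPM of NTD at 2 h, against 9.80 CPM in 0 h replicate 1 and 60.5 CPM in 0 h replicate 4. Its log2 change was -1.94 ± 0.45 (adjusted p = 0.0339, edgeR) and 0.06 ± 0.53 without 0 h replicate 4. Hoxb5 had 9.97 and 10.8 CPM at 2 h, against 11.4 and 69.3 CPM at 0 h, with log2 changes of -2.08 ± 0.48 with all libraries and -0.12 ± 0.55 without 0 h replicate 4. Tnfrsf19, a WNT target, had 23.7 and 27.1 CPM at 2 h, against 25.6 and 109 CPM at 0 h. For Ser5p, Hoxb1 had 19.2, 10.0 and 14.7 CPM at 2 h, against 17.7 and 18.3 CPM at 0 h, and was not called.

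The same promoters were then followed through every other library. The 85 are on 20 chromosomes and none has the counts of another transcript. Apart from 0 h replicate 4, a high NTD median was seen in 72 h replicate 3 (84.4 CPM), and the other 15 NTD libraries had medians of 9.73 to 14.3 CPM. The other 72 h library, replicate 1, had a median of 12.3 CPM. For Ser5p the median of the 85 was 19.2, 12.8 and 15.9 CPM at 2 h, against 17.7 and 20.2 CPM at 0 h, within the range of 12.6 to 20.2 CPM over all 18 Ser5p libraries. For Ser5p, 0 of the 85 were called, and 15 had every 2 h library below every 0 h library (background 16.5 percent). For NTD, 40 of the 85 did, beside 13.5 percent of all transcripts. The 85 were called lower from these same NTD libraries, so a share above that of all transcripts is built into their choice. Over gene bodies the NTD median was 30.9 CPM in 0 h replicate 4, and it was 18.5 to 22.7 CPM in the 15 libraries other than that and 72 h replicate 3. What made these 2 libraries differ was not tested.

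**Figure D3:**
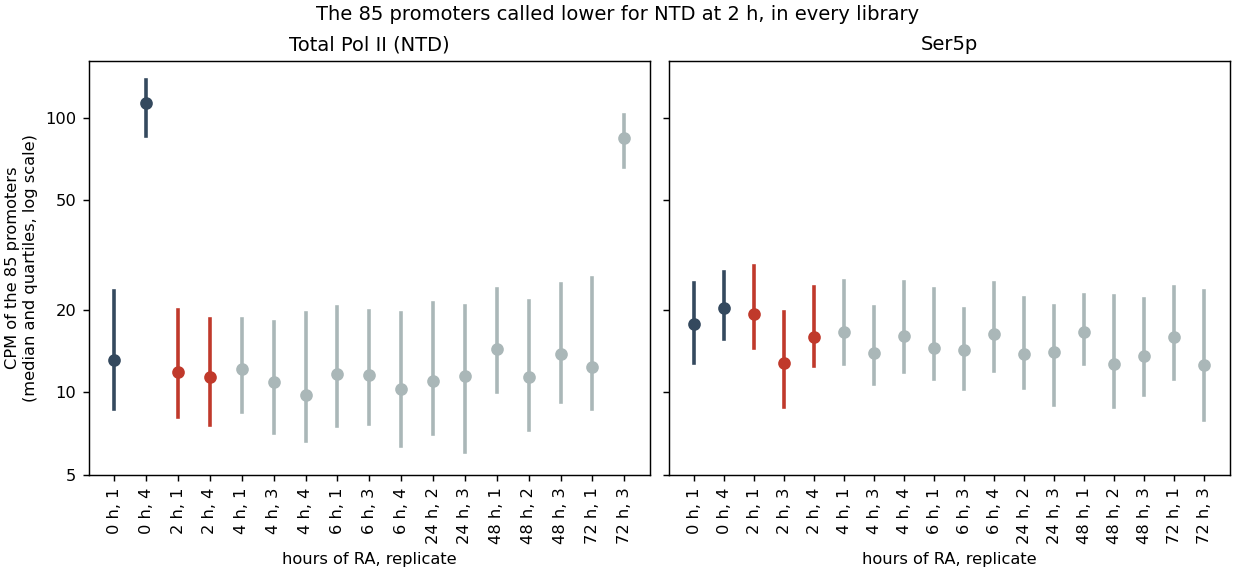
CPM (median and quartiles, log scale) of the 85 promoters called lower for NTD at 2 h, in each library of NTD (left) and Ser5p (right), ordered by hours of RA and replicate number. Red marks 2 h and dark blue 0 h. For NTD, 0 h replicate 4 (median 113 CPM) and 72 h replicate 3 (84.4 CPM) stand above the rest, and for Ser5p all medians lie between 12.6 and 20.2 CPM.

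**Figure D4:**
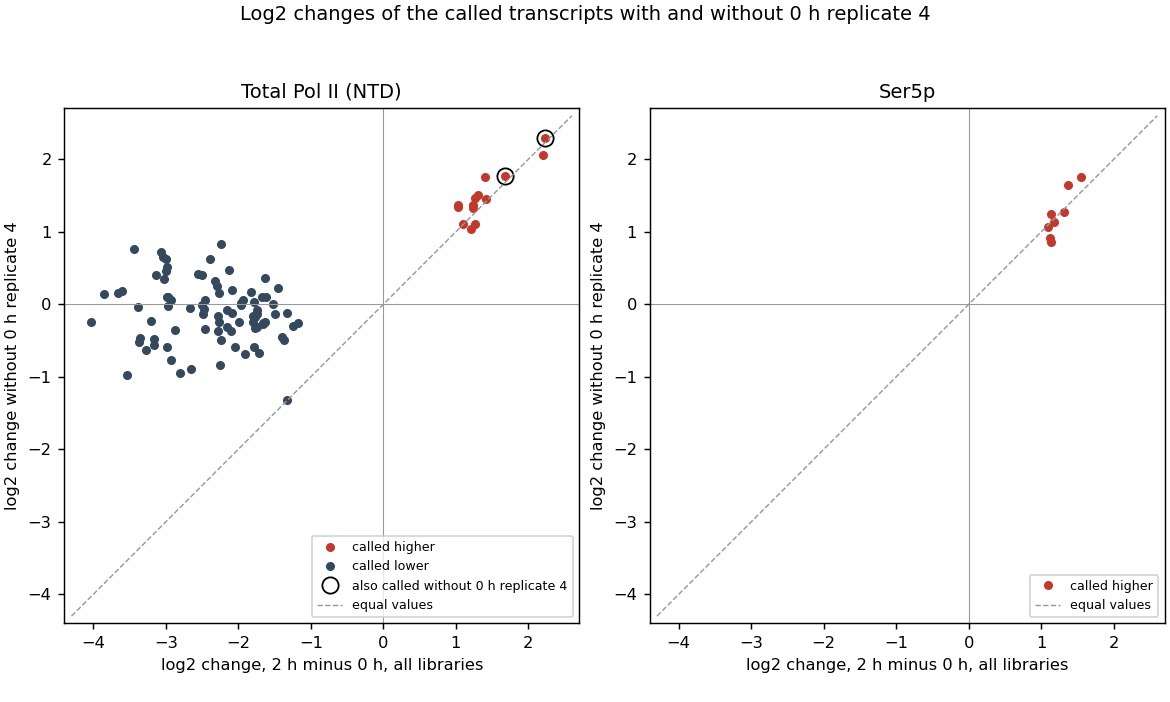
Log2 change at 2 h with all libraries (horizontal) and without 0 h replicate 4 (vertical) for the transcripts called for NTD (left) or Ser5p (right). Circles mark Pmepa1 and Cdx1, called both ways. The genes called higher lie near the line of equal values, while the NTD transcripts called lower spread from -1.33 to 0.83 without that library.

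Gene lists put the called genes beside the other members of their pathways. The lists were chosen with earlier results of these data known. A share of a list beside that of all transcripts is therefore a description and not a test. Of 23 lists, 3 had a member called higher for NTD and 2 a member called lower, and 1 had a member called higher for Ser5p. Among 9 genes of receptors and corepressors, Rarb alone was called, and 0 were without 0 h replicate 4. The other receptor genes with separated groups were Rara, with a log2 change of 0.83 ± 0.26 for NTD and 0.90 ± 0.24 for Ser5p, and Rarg, with 0.87 ± 0.23 and 0.69 ± 0.21. Nrip1, a corepressor that RA induces, had 56.1 and 59.0 CPM of NTD at 2 h, against 29.9 and 32.3 CPM at 0 h, a log2 change of 0.83 ± 0.24 (adjusted p = 0.213, edgeR). With Ncor1, 5 of the 9 had every 2 h library above every 0 h library for both antibodies, a pattern found at 2.85 percent of transcripts measured with both. The list's median log2 change was 0.52 for NTD and 0.40 for Ser5p, beside -0.01 for all transcripts with either antibody, and 0.53 and 0.64 without 0 h replicate 4.

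Of 15 genes of RA synthesis, binding and breakdown, Cyp26a1 was called for NTD, and 0 were without 0 h replicate 4. Dhrs3, a reductase that turns retinal back to retinol, had 31.1 and 26.0 CPM of NTD at 2 h, against 11.4 and 16.2 CPM at 0 h (log2 change 0.96 ± 0.29, adjusted p = 0.290, edgeR). Ser5p at Dhrs3 was 32.6, 32.9 and 41.2 CPM at 2 h, against 15.2 and 19.6 CPM at 0 h (1.14 ± 0.28, adjusted p = 0.213, edgeR). Cyp26a1 and Dhrs3 were the 2 of the 15 with every 2 h library above every 0 h library for both antibodies. That pattern was found at 2.85 percent of transcripts measured with both. For Ser5p, 4 of the 15 had every 2 h library below every 0 h library (16.5 percent of all transcripts did), and 4 changes were positive. For NTD, 7 were above (18.7 percent of all transcripts were) and 0 below, and 12 changes were positive. The list's median was 0.28 for NTD and -0.08 for Ser5p, and 0.24 and -0.0010 without 0 h replicate 4.

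Of 16 RA-induced genes of other roles, Cdx1, Nr6a1 and Acp5 were called for NTD, and 0 for Ser5p. Of all transcripts, 0.0533 percent were called higher for NTD, but the list's members were chosen with earlier results of these data known. Of the 3, Cdx1 was still called without 0 h replicate 4. Stra8, the switch to meiosis in germ cells, had 44.9 and 23.3 CPM of NTD at 2 h, against 15.2 and 14.6 CPM at 0 h. It had 33.1, 54.1 and 31.4 CPM of Ser5p at 2 h, against 17.2 and 18.3 CPM at 0 h. Neither change was called (adjusted p = 0.114 and 0.296, edgeR). The list's median was 0.35 for NTD and -0.07 for Ser5p, and without 0 h replicate 4 it was 0.46 and 0.32, with 15 of 16 Ser5p changes positive instead of 8.

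Hox genes were mostly not called. Of 15 anterior Hox genes, 0 were called higher with either antibody, and Hoxb1 and Hoxb5 were called lower for NTD as described. Posterior Hox genes had 16 measured members for NTD and 17 for Ser5p, with 0 called. Their median log2 change for Ser5p was -0.33 with all libraries and 0.18 without 0 h replicate 4. Of 9 Hox cofactor genes 0 were called. Pbx2, which codes for a partner of Hox proteins, had log2 changes of 0.91 for NTD and 1.38 for Ser5p with separated groups. These were the largest of the 9, and 2.85 percent of transcripts measured with both antibodies were separated that way. The list's median was -0.11 for NTD and -0.10 for Ser5p, and -0.37 and 0.36 without 0 h replicate 4. With each antibody 4 of the 9 changes were positive, and 1 member had every 2 h library below every 0 h library.

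Pluripotency genes gave 0 calls with either antibody in lists of 20 naive and 10 general members. Pou5f1 had 72.9 and 79.6 CPM of NTD at 2 h, against 60.4 and 75.1 CPM at 0 h. Nanog had 48.0 and 67.7 CPM at 2 h, against 40.3 and 85.1 CPM at 0 h, and Sox2 136 and 113 CPM at 2 h, against 120 and 140 CPM at 0 h. In these 3 genes the groups overlapped. Zfp42 had 113 and 95.8 CPM at 2 h, against 120 and 151 CPM at 0 h, with no overlap and a log2 change of -0.43 ± 0.23 that was not called. Its Ser5p groups overlapped, at 70.9 to 106 CPM at 2 h and 99.2 to 118 CPM at 0 h. For both antibodies, 3 of the 20 naive genes had every 2 h library above every 0 h library, and 2 had every one below. Of the 10 general genes, 1 was above and 0 were below. Of all transcripts measured with both, 2.85 percent were above. For NTD, 13.5 percent of all transcripts were below. Otx2, of the formative state, had log2 changes of -1.27 ± 0.37 for NTD and -0.48 ± 0.25 for Ser5p, with no overlap and no call. Actb, whose log2 change was -0.21 ± 0.25 for NTD and -0.01 ± 0.26 for Ser5p, stood with the genes that were not called.

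The other lists, from immediate early genes, FGF-ERK feedback and LIF-STAT3 targets to primitive endoderm, neural, mesoderm, fibroblast, two-cell-like, stress response, cell cycle, Pol II pausing and reference genes, had 0 called members. Over all 23 lists the median log2 change ran from -0.14 to 0.52 for NTD and from -0.33 to 0.40 for Ser5p, and without 0 h replicate 4 from -0.37 to 0.53 and from -0.18 to 0.64. Without 0 h replicate 4, 1 list had a member called higher for NTD (Cdx1) and 0 lists a member called for Ser5p. Of the two-cell-like list of 10, only 2 members for NTD and 3 for Ser5p passed the filter on low counts.

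Pol II over gene bodies was read from the gene-body counts at the same times. A gene's body values are those of its transcript with the highest mean count there. At Acp5 and Cd37, for example, this was another transcript than the one given at the promoter. With NTD and with Ser2p, the phosphorylated form of elongating Pol II, 0 gene bodies were called at 2 h. At an unadjusted p below 0.05, 312 gene bodies were higher and 186 lower for NTD, and 3109 higher and 1256 lower for Ser2p. These were 274 and 118 for NTD and 815 and 357 for Ser2p without 0 h replicate 4, and 3396 and 2010 for Ser2p without 0 h replicate 1. Of the 18 genes called higher at the TSS, 18 had both 2 h libraries above both 0 h libraries for NTD over the gene body, beside 15.0 percent of all gene bodies. For Ser2p, 16 of the 18 had every 2 h library above every 0 h library, beside 14.8 percent. The NTD gene-body counts come from the same libraries in which 13 of the 18 genes were called for NTD. The promoter window also lies next to the gene body, so the NTD values of the 2 are not independent.

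The size of the gene-body change differed among these genes. Cyp26a1 changed by 2.10 ± 0.55 for NTD and 1.19 ± 0.40 for Ser2p, and Camk2n1 by 1.11 ± 0.22 and 0.91 ± 0.16 (log2, SE). Dock6 had 0.97 ± 0.20 for NTD and the smallest adjusted p for Ser2p, with 1.30 ± 0.18 (adjusted p = 0.0644, edgeR). Pmepa1 changed by 0.86 ± 0.20 and 0.98 ± 0.16. Rarb, of which the called window lies inside a long annotated span, changed by 0.10 ± 0.15 for NTD and -0.13 ± 0.11 for Ser2p over its gene body. Foxp1 changed by 0.18 ± 0.09 and 0.12 ± 0.06.

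Levels at later times place the 2 h values within the time course, in libraries that entered the same fits and helped to set their scaling and spread. Pmepa1 was highest at 2 h. Its mean NTD was 28.8 CPM at 0 h, 95.8 CPM at 2 h, 66.7 CPM at 4 h, 68.2 CPM at 6 h, 39.1 CPM at 24 h, 24.2 CPM at 48 h and 17.1 CPM at 72 h. Cdx1 had 8.78 CPM at 0 h, 42.6 CPM at 2 h, 39.8 CPM at 4 h, 42.1 CPM at 6 h, 49.2 CPM at 24 h, 19.7 CPM at 48 h and 10.2 CPM at 72 h. Rarb stood higher at later times, with 51.3 CPM at 2 h, 60.3 CPM at 6 h, 101 CPM at 24 h and 146 CPM at 48 h, and the steps between these times were not tested. Its 2 libraries of 72 h lay apart, with a mean of 121 ± 91 CPM (SD). Cyp26a1 had 58.9 CPM at 2 h, 98.1 CPM at 24 h and 63.2 ± 33.5 CPM (SD) at 48 h. Its 2 libraries of 72 h lay apart too, at 11.5 and 39.9 CPM, with a mean of 25.7 CPM.

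**Figure D5:**
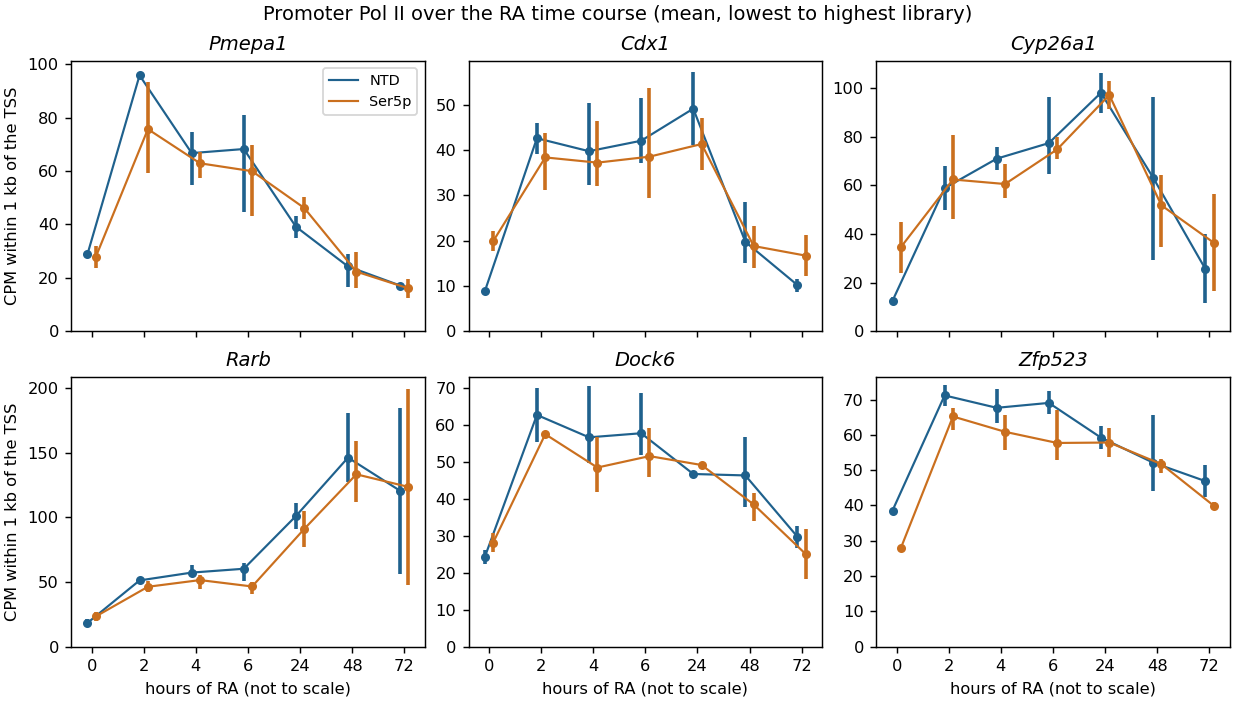
Mean CPM within 1 kb of the TSS from 0 to 72 h of RA for 6 genes, NTD in blue and Ser5p in orange, with vertical bars from the lowest to the highest library (2 or 3 per time). Pmepa1 is highest at 2 h, Rarb at 48 h, and Cyp26a1 and Cdx1 at 24 h.

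The authors' deposited table called more Ser5p promoters than edgeR did. It lists 40 transcripts of 27 genes with an adjusted p below 0.05 and a positive log2 change for Ser5p at 2 h, and 0 with a negative one. It gives an adjusted p to 8884 Ser5p transcripts, where edgeR tested 32774, so that the counts of calls rest on unlike numbers of transcripts. Of the 10 transcripts called here, 9 are among those 40, and that of Cd37 has no adjusted p in the authors' deposited table. Those of Cdx1, Acp5, Camk2n1 and Dleu7, called here for NTD, have none for Ser5p there either. Smyd4 (adjusted p = 0.0144) and Rpa1 (0.0265) are among those called in the authors' deposited table and not in edgeR. Cyp26a1 (0.283) and Rarb (0.263) are not called for Ser5p in the authors' deposited table either. The log2 changes in the authors' deposited table were smaller than those of edgeR, for example 0.68 for Pmepa1 and 0.52 for Zfp523, and how they were computed is not stated.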

How the data were processed

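Chromatin immunoprecipitation libraries for Pol II NTD and Ser5p were compared at 2 h and 0 h of RA, with gene-body counts of NTD and Ser2p beside them. Per the file headers, the authors deposited raw read counts per RefSeq transcript within 1 kb of the TSS or over the gene body, a scaled signal per library, log2 fold changes and adjusted p-values. The submitters' processing notes name mm10, dm6, Bowtie2, SAMtools, MACS2 and DESeq2, and their settings are not stated there. The authors' signal served only to recover their scale factors, and the log2 changes and p-values in the authors' deposited table are quoted as theirs.

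Counts were fitted per antibody with all times (17 NTD and 18 Ser5p libraries) in edgeR 4.0.16 (R 4.3.3): filterByExpr, TMM, time as a factor, a quasi-likelihood test of 2 h minus 0 h and Benjamini-Hochberg adjustment at 0.05. SE is the log2 change divided by the root of F. The difference between antibodies came from 1 fit of both. DESeq2 1.42.0, other scalings, no filter, left-out libraries and a replicate block were alternatives. Scripts were tested on simulated data. Transcripts without a symbol held 0.0650 percent of NTD and 0.0761 percent of Ser5p counts. They stayed in the fits and were left out where genes are named or counted. Of 33687 NTD transcripts, 11519 share identical counts with another transcript. Where a gene has several transcripts, the one with the highest mean count is given. A further 49 columns, each holding values of a sample or group, stayed out of the work. Replicates of 1 antibody and time correlated at 0.922 to 0.954 (Pearson's r of log2 CPM, across transcripts, which are not independent).

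Named genes are those called both with all libraries and without 0 h replicate 4 (up to 12 per direction), the 6 largest called changes per direction with a mean of at least 5 CPM, 13 fixed genes, and up to 2 called members per gene list. All genes called higher, and Rara, Rarg, Ncor1, Pbx2, Otx2 and Mir127, are named beside these. The result for 1 of the fixed genes is not reported here. The members and lists were chosen with earlier results of these data known. Promoter sequences are RefSeq's (GRCm38.p6), read 250 bases before to 50 after a start.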

Additional observations from a re-analysis of the deposited data

How the results depend on the processing

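Cdx1 and Pmepa1 were called higher for NTD under all 13 alternatives, with log2 changes of 2.10 to 2.34 and 1.62 to 1.77. Cyp26a1 was called under 10 of 13 for NTD, and for Ser5p Pmepa1 under 11 and Zfp523 under 10. The 17 transcripts called higher for NTD became 2 to 13 when a library was left out, and the 85 called lower became 0 to 169. The 10 called higher for Ser5p became 0 to 6, and the 0 called lower became 0 to 1. The counts after leaving out a library include transcripts that were not called with all libraries. With 0 h and 2 h libraries alone, 3 were higher and 0 lower for NTD, and 2 higher for Ser5p. DESeq2 called 3 higher and 0 lower for NTD and 33 higher for Ser5p, where it gave an adjusted p to 9539 transcripts. With the authors' scale factors, 3 were higher for NTD and 2 for Ser5p, whose median change over all transcripts was then 0.19, and in the test between antibodies 26 and 1 were called, as were 95 and 1 without 0 h replicate 1.

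Without 0 h replicate 4 and 72 h replicate 3 together, 9 were higher and 0 lower for NTD. Chosen after seeing the data, 0 h and 2 h libraries less 0 h replicate 4 gave 51 higher and 13 lower for NTD, and those less 2 h replicate 3 gave 2 higher for Ser5p. In the fit of 0 h and 2 h libraries less 0 h replicate 4, the transcripts called lower for NTD were others than the 85. Most of those called higher there were not among the 17 called with all libraries. Among the named genes called lower for NTD, the sign turned without 0 h replicate 4 in 6, and 52 of the 85 called transcripts stayed below 0. Over all left-out libraries they ran from -4.55 to 0.16 for Asic2, -4.76 to 0.15 for Ednrb, -2.66 to 0.055 for Hoxb1, -4.49 to 0.76 for Megf10, -4.49 to 0.18 for Nlgn1 and -2.18 to 0.0051 for Tnfrsf19. With 72 h replicate 3 left out as well they were 0.16, 0.15, 0.057, 0.76, 0.19 and 0.0054 in that order, and with 0 h and 2 h libraries less 0 h replicate 4 they were 0.15, 0.14, 0.053, 0.76, 0.18 and 0.00050. The cause was not tested.

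Replicate numbers are shared between 2 h and 0 h, and the main fits did not take them as pairs. The replicate 1 minus 4 differences of the 2 times correlated at 0.08 for NTD and -0.04 for Ser5p across transcripts. Over gene bodies they correlated at 0.15 for NTD and -0.42 for Ser2p. Such correlations over all transcripts cannot show whether libraries of 1 number share a batch. With a replicate block, 31 were higher and 113 lower for NTD, 52 higher and 2 lower for Ser5p, and 30 gene bodies higher for Ser2p. Cdx1, Cyp26a1, Dhrs3, Acp5, Smyd4, Rpa1 and Pbx2, not called for Ser5p in the main fit, were then called higher for Ser5p. Rarg, Ppdpf and Zfp523 were then called higher for NTD. With 2 or 3 libraries per group, an adjusted p above 0.05 does not show that levels were alike.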
